A study of Mus musculus with 8 samples.

Results

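The machinery of regulated exocytosis was examined in pancreatic islets, the clusters of endocrine cells that secrete insulin, glucagon, somatostatin and pancreatic polypeptide. Its members were the genes of the deposited table whose symbol marks them as a synaptotagmin (Syt), a synaptotagmin-like protein (Sytl), a syntaxin (Stx), a syntaxin-binding protein (Stxbp), a VAMP, a SNAP, a Rab3 or Rab27 GTPase, a Munc13 (Unc13), a RIM (Rims) or a complexin (Cplx). This rule by symbol gave 66 of 14126 genes, and no expression value entered it. It also took in Snap91, which encodes a clathrin assembly protein and not a SNARE.

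Bulk RNA sequencing was made from islets of NOD/ShiLtJ mice, a strain prone to autoimmune diabetes, at 7 weeks of age. The 4 libraries labelled KO came from mice of the genotype IRE1[alpha][beta]-/-, and the 4 labelled WT from mice of the genotype IRE1[alpha]fl/fl, which carry floxed alleles of the endoplasmic reticulum stress sensor IRE1α. Both groups were given tamoxifen in corn oil by intraperitoneal injection to switch on Cre recombinase. The labels name neither the promoter that drives Cre nor the cells it acts in, and they do not say what [beta] stands for. Each library was taken as 1 mouse, since the design text gives 4 mice per group, and holds whole hand-picked islets with all their cell types.

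An insulin or glucagon granule reaches the plasma membrane with Rab3 and Rab27 GTPases on its surface, which bind effectors such as RIM proteins and the synaptotagmin-like proteins. Munc13 and Munc18 proteins then prepare the SNARE proteins of the granule (VAMPs) and of the plasma membrane (syntaxins and SNAP-25 relatives) to zip together, complexins hold or assist the assembled bundle, and synaptotagmins with calcium-binding C2 domains trigger fusion when calcium enters. In beta cells the best known parts are Rab27a with its effector granuphilin (Sytl4), Rab3a, Munc18 and Munc13 proteins, syntaxin 1A, SNAP-25, VAMP2 and the calcium sensors Syt7 and Syt9.

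The start regions of 5 members follow, because these members carry the largest falls (Sytl4 and Rims3), a large rise (Rab3c) or a fall together with the letters ACGTG (Unc13b and Syt14). ACGTG is the core of sites bound by XBP1, the transcription factor whose messenger RNA is spliced by IRE1α. Each sequence runs 5′ to 3′ on the gene's own strand from 250 bases before to 50 bases after the RefSeq start (GRCm38.p6), and capitals mark ACGTG or its reverse complement CACGT.
Sytl4 (chrX:133981763-133982062, minus strand): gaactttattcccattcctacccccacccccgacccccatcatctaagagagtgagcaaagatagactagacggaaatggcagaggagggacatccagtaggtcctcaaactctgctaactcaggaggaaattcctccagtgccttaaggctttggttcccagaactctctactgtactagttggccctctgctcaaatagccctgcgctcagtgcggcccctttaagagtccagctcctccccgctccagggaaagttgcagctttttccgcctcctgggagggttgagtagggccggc
Rims3 (chr4:120854549-120854848, plus strand): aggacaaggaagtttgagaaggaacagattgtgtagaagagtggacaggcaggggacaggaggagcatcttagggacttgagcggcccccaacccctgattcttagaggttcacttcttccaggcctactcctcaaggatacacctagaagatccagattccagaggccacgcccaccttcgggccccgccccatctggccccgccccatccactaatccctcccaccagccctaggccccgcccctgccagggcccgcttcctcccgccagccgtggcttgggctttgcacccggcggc
Rab3c (chr13:110280157-110280456, minus strand): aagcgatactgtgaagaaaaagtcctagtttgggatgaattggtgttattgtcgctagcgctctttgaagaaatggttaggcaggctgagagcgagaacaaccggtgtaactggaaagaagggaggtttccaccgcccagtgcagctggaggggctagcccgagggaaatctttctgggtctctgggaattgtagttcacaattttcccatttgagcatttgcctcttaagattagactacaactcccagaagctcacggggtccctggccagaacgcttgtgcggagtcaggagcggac
Unc13b (chr4:43058703-43059002, plus strand): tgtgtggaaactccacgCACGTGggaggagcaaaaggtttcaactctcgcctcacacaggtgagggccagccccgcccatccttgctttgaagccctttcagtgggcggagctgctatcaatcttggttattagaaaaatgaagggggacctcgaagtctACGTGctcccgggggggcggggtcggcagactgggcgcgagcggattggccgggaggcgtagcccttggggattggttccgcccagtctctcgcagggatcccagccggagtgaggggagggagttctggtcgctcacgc
Syt14 (chr1:193035726-193036025, minus strand): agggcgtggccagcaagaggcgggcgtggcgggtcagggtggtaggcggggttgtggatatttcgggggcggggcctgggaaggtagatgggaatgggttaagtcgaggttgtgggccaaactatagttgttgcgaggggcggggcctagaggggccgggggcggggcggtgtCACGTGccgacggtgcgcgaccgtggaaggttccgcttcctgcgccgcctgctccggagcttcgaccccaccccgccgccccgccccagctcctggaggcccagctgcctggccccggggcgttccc

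ACGTG was not among these letters in Sytl4, Rims3 and Rab3c. Unc13b held 3 matches over both strands and Syt14 held 2, and the palindrome CACGTG counts once on each strand. Of the 66 members 50 had such a promoter in the RefSeq table. On either strand, ACGTG occurred in 1 of 10 members that were higher in KO libraries (Syt6), in 4 of 10 that were lower (Rab27a, Stx6, Syt14 and Unc13b) and in 6 of 30 that did not pass the test below. Among all 27025 genes with a promoter of this length the share was 21.8%. The longer XBP1 site TGACGTGG, which contains ACGTG, was present in 0.714% of all genes and in 1 member, Stx5a, the Golgi syntaxin. The cyclic AMP response element TGACGTCA was present in 2.03% of all genes and in 1 member, Stxbp3. The MAF factor core TGCTGAC was present in 5.28% of all genes and in 1 member, Sytl5, and the TATA box TATAAA in 15.7% of all genes and in 3 members, Rab3b, Stx2 and Stx3. These counts describe letters in a window and show no binding. Promoters of members had a median GC content of 62.5%, against 52.8% over all genes, and the medians were 64.3% in members higher in KO, 62.2% in members lower in KO and 62.8% in the rest.

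The deposited values were normalized and rounded to whole numbers, and they summed to between 32024139 and 34858983 per library. These totals follow normalization, so the sequencing depth is unknown and the precision is that of 4 libraries in each group. All 66 members passed the filter on low values (at least 1 in 4 libraries), and 2 of them, Cplx1 and Stx11, had a value under 10 in some library. Ern1, which encodes IRE1α, averaged 7188 ± 195 in KO libraries and 4959 ± 488 in WT libraries (SD, n = 4 each). This total over all exons was higher in libraries labelled KO, and since it can take in reads outside the floxed exons it does not check the labels, on which every direction below rests. Libraries 1 and 2 of each label stood apart from libraries 3 and 4, and nothing in the labels records a batch. With the label in the model, libraries 3 and 4 exceeded libraries 1 and 2 in 9.38% of all genes tested and fell short of them in 6.06%.

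Exocytosis genes changed in both directions. Of the 66 members, 13 (19.7%) were higher and 12 (18.2%) were lower in KO than in WT islets (limma-trend on log2(value + 1), Benjamini-Hochberg adjusted p under 0.05 over 14121 genes). The background was 11.1% of all genes tested higher and 9.81% lower. The median log2 fold change was -0.06 over members and -0.0008 over all genes tested, and the median of its absolute size was 0.33 over members and 0.23 over all genes. All KO libraries lay above all WT libraries in 13 members and below them in 16, against 13.6% and 12.3% of all genes tested. With the replicate number as a block, 14 members were higher and 15 lower, against 14.2% and 11.7% of all genes. With library totals that leave out hormone and mitochondrial genes, 14 members were higher and 9 lower, against 12.4% and 7.2% of all genes. In the authors' deposited table, 16 members were higher and 17 lower at an FDR under 0.05, against 16.2% and 13.1% of all genes. The calls fell unevenly over the gene families. The 14 synaptotagmins gave 6 higher and 3 lower, the 5 synaptotagmin-like genes 2 higher and 3 lower, and the 6 Rab3 and Rab27 genes 3 higher and 2 lower. The 14 syntaxins, 7 VAMPs and 5 SNAPs gave 1 call, which was lower.

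**Figure D1:**
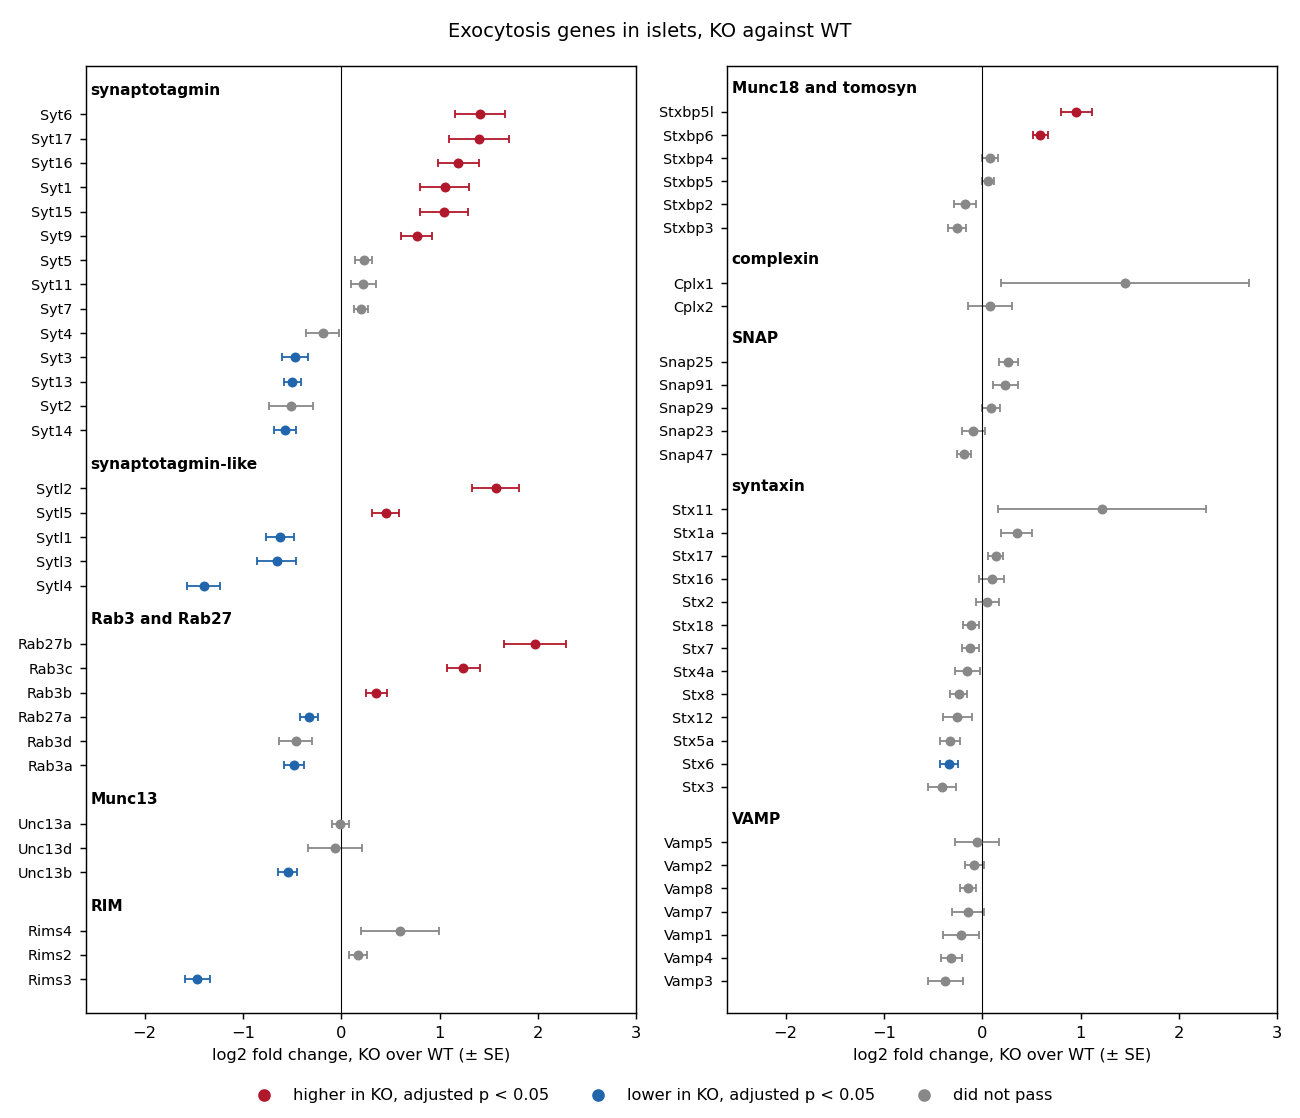
Log2 fold change of KO over WT islets for 64 of the exocytosis genes, grouped by family. Points are limma-trend estimates and bars are ± 1 moderated standard error (4 KO and 4 WT libraries). The calls lie mostly in the left panel, with Rab27b at 1.97 and Rims3 at -1.46 as its extremes, and none of the VAMP and SNAP genes passed.

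Cell type markers moved with these results. Fewer cells of a type and less RNA per cell cannot be told apart in bulk tissue. Of 10 beta cell markers 7 were lower and none higher in KO, and their summed value was 2547831 to 3495489 in KO libraries against 5369690 to 6009868 in WT libraries. Ins1 and Ins2 made up most of this sum. Of 7 alpha cell markers 6 were higher, with sums of 1916225 to 2617684 in KO libraries against 400617 to 1042484 in WT libraries, and Irx1 was the one that did not pass. The alpha sum was nearly all Gcg, which alone was 2535429 in KO 1 and 374922 in WT 1, the libraries with the largest and smallest alpha sums. All 4 delta and PP cell markers were higher, with sums of 272427 to 383774 in KO libraries against 101132 to 167376 in WT libraries. Acinar markers passed in 0 of 7 (sums of 109921 to 332876 in KO and 16474 to 214603 in WT) and stellate markers in 0 of 4 (4796 to 13839 in KO and 1057 to 6700 in WT). Of 4 ductal markers Spp1 was higher, and the sums were 11027 to 26676 in KO libraries against 5550 to 6489 in WT libraries. In this ductal list Spp1 averaged 11447.5 in KO and 1237.25 in WT libraries, while Krt7 averaged 4558 in KO and 4534.25 in WT libraries. KO library 1 was the highest for that list, with a Krt19 value of 1673 against 54 to 216 in the other KO libraries and 46 to 80 in WT libraries. None of 3 endothelial markers passed (6654 to 11126 in KO and 6883 to 7969 in WT), none of 4 macrophage markers (850 to 1592 in KO and 794 to 1871 in WT), and none of 5 measured Schwann and neural markers (1905 to 2952 in KO and 1636 to 2571 in WT). Of 2 measured T and B cell markers Cd79a was lower, with sums of 280 to 444 in KO libraries against 311 to 840 in WT libraries. The part of these shifts in the exocytosis results was not tested.

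In the synaptotagmin-like family 2 genes rose and 3 fell. Sytl4 (ENSMUSG00000031255; chromosome X, 133936385 to 133981812, minus strand, GRCm38) encodes granuphilin, the Rab27a effector that docks insulin granules. Its normalized values were 7090, 9338, 10649 and 9660 in KO libraries 1 to 4, against 28674, 27852, 21701 and 18957 in WT libraries 1 to 4. Every KO library lay far below every WT library. The mean was 9184 ± 1503 in KO and 24296 ± 4728 in WT libraries (SD, n = 4 each). On the log2 scale the change was -1.40 with a moderated SE of 0.17, and its adjusted p was 0.000785. Changes below are likewise given as log2 KO over WT ± SE. Sytl4 was highest in the WT library with the lowest alpha marker sum (WT 1) and lowest in the KO library with the highest alpha marker sum (KO 1). From WT 1 to WT 4 Sytl4 fell while the alpha marker sum rose. In the KO libraries other than KO 1 the order was the reverse, since Sytl4 and the sum both rose from KO 2 to KO 4 to KO 3. A relation between the 2 was not tested.

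Sytl2 (ENSMUSG00000030616; chromosome 7, 90302252 to 90410719, plus strand) encodes Slp2, a Rab27 effector that has been described on glucagon granules of alpha cells. It had values of 412, 190, 223 and 266 in KO libraries, against 72, 95, 83 and 102 in WT libraries. All KO libraries lay above all WT libraries, and KO 1 stood above the other 3. The log2 fold change was 1.57 ± 0.24 (adjusted p = 0.00246). The other Rab27-binding members of the family split in direction. Sytl1 fell by 0.62 ± 0.15 on the log2 scale (adjusted p = 0.0174), with 888, 1141, 820 and 693 in KO libraries against 1200, 1439, 1459 and 1289 in WT libraries. Its groups did not overlap, and without WT 2 its adjusted p was 0.0502. Sytl3 had 54, 88, 87 and 92 in KO libraries against 110, 130, 130 and 129 in WT libraries, a fall of 0.66 ± 0.20 (adjusted p = 0.0469). That call sat at the threshold and was lost on leaving out any 1 of the 8 libraries (adjusted p up to 0.11). Sytl5 averaged 2275 ± 283 in KO and 1671 ± 273 in WT libraries, a log2 fold change of 0.45 ± 0.14 (adjusted p = 0.0441). All its KO libraries were above all WT libraries, and the call was lost without any 1 of the KO libraries, WT 3 or WT 4 (adjusted p up to 0.11).

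Per kilobase of exon (all annotated exons of a gene merged), the Sytl family became less dominated by Sytl4. Sytl4 made up 47.3%, 54.7%, 62.7% and 60.7% of the family's summed value per kilobase in KO libraries, against 81%, 79.1%, 78.1% and 75% in WT libraries. It remained the largest share in all 8 libraries. The family's sum per kilobase was 2923 to 3330 in KO libraries and 4933 to 6906 in WT libraries. Sytl5 had a mean level of 988.6 per kilobase in KO and 726 in WT libraries, and Sytl4 1792 in KO and 4741 in WT libraries.

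Among the Rab GTPases, the granule Rabs of beta cells were lower and less abundant relatives were higher. Rab3a (ENSMUSG00000031840), the synaptic vesicle and insulin granule Rab, had 1515, 1858, 1363 and 1608 in KO libraries against 2082, 2206, 2109 and 2403 in WT libraries. All KO values were below all WT values, and the log2 fold change was -0.48 ± 0.10 (adjusted p = 0.0117). Rab27a (ENSMUSG00000032202), which recruits granuphilin to the insulin granule, had 5566, 6501, 6949 and 6834 in KO libraries against 8085, 7299, 8373 and 8553 in WT libraries. The groups did not overlap, yet the fall of 0.32 ± 0.09 (adjusted p = 0.0359) was lost without any 1 of KO 1, KO 2, KO 4, WT 1, WT 3 or WT 4 (adjusted p up to 0.0819). Exons of Rab27a share 3.84% of their length with a processed pseudogene.

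Rab27b (ENSMUSG00000024511; chromosome 18, 69979131 to 70141605, minus strand), the close relative of Rab27a found in many secretory cells, had the largest rise of any member. Its values were 492, 204, 210 and 199 in KO libraries, against 46, 64, 69 and 84 in WT libraries. Every KO library was above every WT library, and KO 1 stood far above the other 3. The log2 fold change was 1.97 ± 0.32 (adjusted p = 0.0031), and without KO 1 it was 1.65 (adjusted p = 0.00314). Rab27b made up 1.05% to 3.11% of the 2 Rab27 genes per kilobase in KO libraries and 0.206% to 0.355% in WT libraries, so Rab27a remained the larger share in all 8.

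Rab3c (ENSMUSG00000021700; chromosome 13, 110054187 to 110280996, minus strand), a Rab3 of neurons and endocrine cells, had 961, 833, 970 and 941 in KO libraries against 323, 303, 478 and 495 in WT libraries. The lowest KO value was well above the highest WT value, and the log2 fold change was 1.24 ± 0.17 (adjusted p = 0.00149). Rab3b averaged 1229 ± 124 in KO and 961 ± 106 in WT libraries. It was the one called member whose groups overlapped, with a log2 fold change of 0.36 ± 0.11 (adjusted p = 0.0425), and the replicate block ended the call (adjusted p = 0.0569), as did leaving out any 1 of KO 1, KO 2, KO 4, WT 1, WT 2 or WT 3 (adjusted p up to 0.11). An antisense gene shares 9% of the exon length of Rab3b. Rab3d, a Rab of zymogen and other large granules, averaged 3718 ± 683 in KO and 5147 ± 1023 in WT libraries and did not pass (log2 fold change of -0.46, adjusted p = 0.0781), but it did with the replicate block (0.0257). Rab3d and Rab3a remained the largest shares of the 4 Rab3 genes per kilobase in both groups. Rab3d took 43.6% ± 3.29 in KO and 48.4% ± 6.38 in WT libraries, and Rab3a 35.2% ± 2.08 in KO and 39.4% ± 4.19 in WT libraries (SD, n = 4 each). Rab3b took 16.2% to 19.1% in KO libraries and 9.2% to 13% in WT libraries, and Rab3c 2.86% to 4.29% in KO libraries and 0.916% to 1.72% in WT libraries, without overlap in either case.

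Among the synaptotagmins 6 genes rose and 3 fell. Syt13 (ENSMUSG00000027220; chromosome 2, 92915098 to 92956058, plus strand), an atypical synaptotagmin that does not bind calcium and that takes part in endocrine islet development in the mouse, had the highest level per kilobase of all members in both groups. Its values were 24676, 28590, 27936 and 28861 in KO libraries, against 40463, 40596, 39145 and 35047 in WT libraries. The lowest WT value was far above the highest KO value, with a log2 fold change of -0.50 ± 0.09 (adjusted p = 0.00562). In the authors' deposited table the fold change of Syt13 was -0.50 and its FDR was 0.0609, the only call of the 25 that their table did not share. Syt14, another atypical member without a complete calcium site, had 1002, 1065, 973 and 938 in KO libraries against 1739, 1579, 1230 and 1393 in WT libraries. It was lower in every KO library, by a log2 fold change of -0.57 ± 0.11 (adjusted p = 0.00784). Syt3 averaged 231 ± 37.0 in KO and 318 ± 9.78 in WT libraries (log2 fold change of -0.47 ± 0.13, adjusted p = 0.0339), a call lost without any 1 of KO 3, KO 4 or the 4 WT libraries (adjusted p up to 0.0863).

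The synaptotagmins that rose were of low or middle level. Syt1, the fast calcium sensor of neurons, had 396, 551, 578 and 553 in KO libraries against 236, 151, 306 and 341 in WT libraries. Its lowest KO value was above its highest WT value, with a log2 fold change of 1.05 ± 0.25 (adjusted p = 0.0174). Syt9, a calcium sensor of insulin release in rat beta cell lines, had 549, 424, 524 and 499 in KO libraries against 215, 321, 330 and 318 in WT libraries. It too was higher in every KO library, by 0.77 ± 0.16 on the log2 scale (adjusted p = 0.00949).

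Syt6 (ENSMUSG00000027849; chromosome 3, 103575231 to 103645569, plus strand) had 154, 213, 282 and 258 in KO libraries against 80, 56, 104 and 100 in WT libraries. It belongs to the synaptotagmins that form disulphide-linked dimers, as does Syt3, which fell. The log2 fold change of Syt6 was 1.41 ± 0.25 (adjusted p = 0.00534), and its exons share 8.67% of their length with a gene on the opposite strand. Syt16, an atypical member, had 388, 424, 363 and 292 in KO libraries against 118, 137, 227 and 172 in WT libraries, a log2 fold change of 1.19 ± 0.21 (adjusted p = 0.00488). Syt17 had 96, 82, 72 and 89 in KO libraries against 21, 23, 49 and 40 in WT libraries, a log2 fold change of 1.40 ± 0.31 (adjusted p = 0.0126). For both genes the groups did not overlap, and in WT libraries 3 and 4 the values were above those in WT libraries 1 and 2. Syt15 had 71, 85, 106 and 108 in KO libraries against 42, 31, 54 and 52 in WT libraries (log2 fold change of 1.04 ± 0.25, adjusted p = 0.0177), and the call was lost without KO 3 or without KO 4 (adjusted p up to 0.0553).

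Syt7, Syt5 and Syt4 had higher levels per kilobase than the synaptotagmins that rose, and they did not pass. Syt7, a main calcium sensor of insulin and glucagon release, had 10588, 10439, 10176 and 10709 in KO libraries against 8545, 8723, 9519 and 9751 in WT libraries. Every KO library was above every WT library, but the log2 fold change of 0.20 (95% interval of 0.04 to 0.36) had an adjusted p of 0.0755, or 0.043 with totals without hormone and mitochondrial genes and 0.0481 without WT 4. Syt5, a granule synaptotagmin, had 1714, 1997, 1578 and 1754 in KO libraries against 1534, 1480, 1385 and 1599 in WT libraries, with 1 KO value inside the WT range (log2 fold change of 0.23, interval of 0.03 to 0.43, adjusted p = 0.102). Syt4, which in the mouse rises as beta cells mature, had 4392, 4800, 5944 and 6202 in KO libraries against 5945, 4495, 6820 and 7230 in WT libraries. The Syt4 groups overlapped widely (log2 fold change of -0.19, interval of -0.57 to 0.19, adjusted p = 0.464), and 14.5% of its exon length is shared with an antisense gene. Syt2 and Syt11 did not pass either, with log2 fold changes of -0.51 and 0.23. Of the summed level per kilobase of the 14 synaptotagmins, Syt13 took 61.7% to 64.2% in KO libraries and 67% to 74.9% in WT libraries, and Syt7 took 11.5% to 13.3% in KO libraries and 7.75% to 9.36% in WT libraries.

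**Figure D2:**
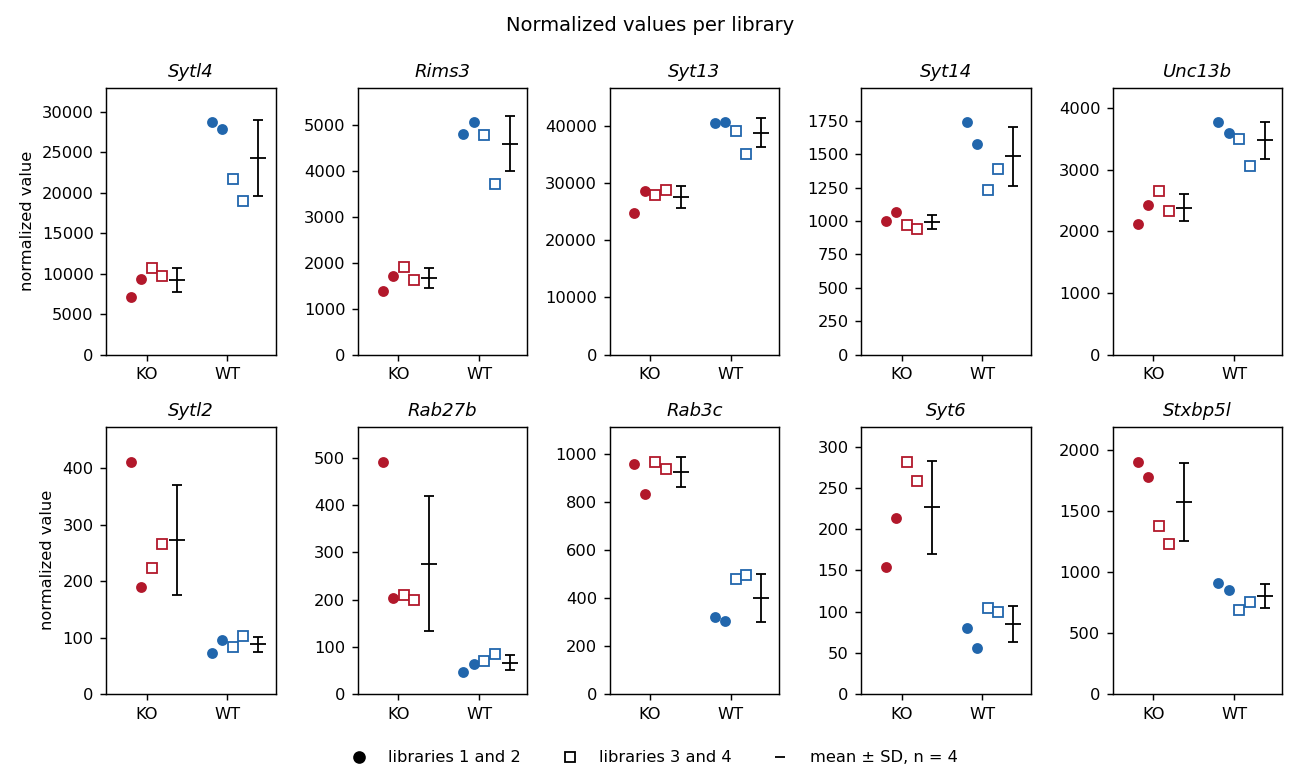
Normalized values (vertical axes, from 0) in the 4 KO libraries (left in each panel) and the 4 WT libraries (right) for 5 members that fell (top row) and 5 that rose (bottom row). Black marks are mean ± SD, filled circles are libraries 1 and 2 and open squares libraries 3 and 4. The groups do not overlap in any of the 10 panels, and KO library 1 stands apart for Rab27b at 492.

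Priming and docking factors gave falls in 1 member each of the RIM and Munc13 families. Rims3 (ENSMUSG00000032890; chromosome 4, 120854816 to 120896579, plus strand), a short RIM that lacks the Rab3-binding part of its relatives, had the largest fall of any member. It had 1395, 1722, 1920 and 1636 in KO libraries against 4817, 5063, 4791 and 3730 in WT libraries. The KO libraries were all far below the WT libraries, with a log2 fold change of -1.46 ± 0.13 (adjusted p = 0.000156). Rims2, the Rab3 effector that supports granule docking in beta cells, had 2732, 2807, 2671 and 2556 in KO libraries against 2650, 2622, 2102 and 2226 in WT libraries. Its groups overlapped (log2 fold change of 0.17, interval of -0.04 to 0.38, adjusted p = 0.219), and the scarce Rims4 did not pass (0.60, adjusted p = 0.327). Rims3 made up 39.4% to 47.4% of the 3 RIM genes per kilobase in KO libraries and 68% to 74.5% in WT libraries.

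Unc13b (ENSMUSG00000028456; chromosome 4, 43058953 to 43264871, plus strand), one of the Munc13 proteins that open syntaxin for SNARE assembly, had 2124, 2435, 2658 and 2331 in KO libraries against 3770, 3591, 3500 and 3060 in WT libraries. The groups were apart, with a log2 fold change of -0.54 ± 0.09 (adjusted p = 0.00441). Unc13a, the Munc13 best known for insulin granule priming, had 3450, 3982, 3714 and 3178 in KO libraries against 3307, 3739, 3543 and 3792 in WT libraries. Here the values were interleaved (log2 fold change of -0.01, interval of -0.21 to 0.19, adjusted p = 0.959). The share of Unc13b in the sum of both per kilobase was 25.3% to 28.9% in KO libraries and 30.9% to 38.7% in WT libraries. Unc13d, the Rab27 effector of blood cells, was scarce and did not pass (log2 fold change of -0.06, adjusted p = 0.899).

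The Munc18 genes Stxbp2 and Stxbp3 did not pass (-0.18 and -0.26, adjusted p = 0.291 and 0.0713). Of the inhibitors of SNARE assembly 2 rose. Stxbp5l (ENSMUSG00000022829; chromosome 16, 37114942 to 37384962, minus strand), one of the tomosyns that compete with VAMP2 for the plasma membrane SNAREs, had 1904, 1775, 1373 and 1233 in KO libraries against 913, 848, 686 and 756 in WT libraries. All KO values exceeded all WT values, with a log2 fold change of 0.96 ± 0.15 (adjusted p = 0.00311). Stxbp6, amisyn, had 806, 865, 845 and 821 in KO libraries against 561, 541, 528 and 586 in WT libraries. Its groups were far apart relative to their spread, at a log2 ratio of 0.59 ± 0.07 (adjusted p = 0.000998). The other tomosyn, Stxbp5, did not pass (0.06, interval of -0.08 to 0.19, adjusted p = 0.537), nor did Stxbp4 (0.08, adjusted p = 0.518). Stxbp5l took 52.3% to 62.5% of the 2 tomosyn genes per kilobase in KO libraries and 39% to 44.6% in WT libraries.

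Complexins did not pass. Cplx2, the complexin abundant in islets, had 5155, 5280, 3058 and 3085 in KO libraries against 4206, 4803, 3288 and 3092 in WT libraries. Its values divided by replicate set more than by label (log2 fold change of 0.08, interval of -0.43 to 0.59, adjusted p = 0.838). Cplx1 had 11, 3, 109 and 79 in KO libraries against 4, 1, 32 and 22 in WT libraries, again split by set. Its log2 fold change of 1.45 had an interval of -1.40 to 4.30 (adjusted p = 0.457), and it passed with the replicate block (0.0327).

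**Figure D3:**
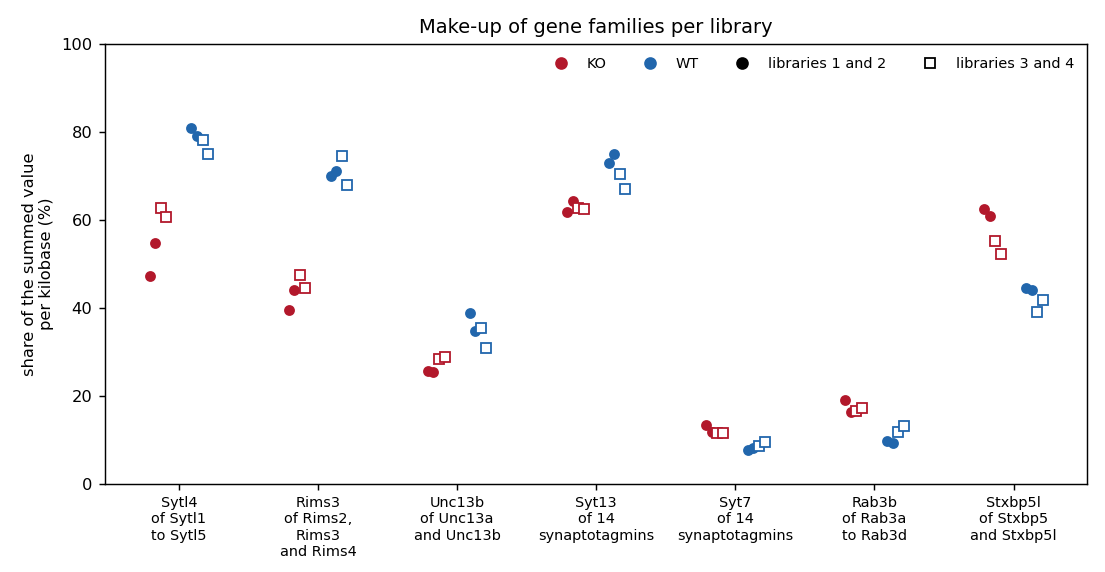
Share of 1 gene in the summed value per kilobase of its family (percent, vertical axis) in each KO library (red, left) and WT library (blue, right). The shares of Sytl4, Rims3, Unc13b and Syt13 are lower and those of Syt7, Rab3b and Stxbp5l higher in KO libraries, with no overlap between the groups in any of the 7 shares shown. The shares of Rab3a and Rab3d, not shown, overlapped. A share depends on the other genes of its family too, and Syt7 itself did not pass. The other genes shown were called from these same values, so their shares give no separate support.

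None of the core SNAREs passed. Snap25, which with syntaxin 1A and VAMP2 forms the fusion bundle, had 3572, 3691, 4073 and 3987 in KO libraries against 3168, 2694, 3338 and 3591 in WT libraries. Only KO 1 fell inside the WT range, and the log2 fold change of 0.27 (interval of 0.05 to 0.49) had an adjusted p of 0.0853, or 0.0449 with the replicate block, 0.0357 with totals without hormone and mitochondrial genes and 0.0429 without WT 4. Stx1a had 401, 431, 337 and 318 in KO libraries against 226, 278, 330 and 336 in WT libraries. KO 1 and KO 2 were well above every WT library, while KO 3 was close to the highest WT value and KO 4 lay inside the WT range (log2 fold change over all of 0.35, interval of -0.01 to 0.71, adjusted p = 0.151). Vamp2 had 1340, 1694, 1521 and 1350 in KO libraries against 1645, 1460, 1440 and 1685 in WT libraries, which were interleaved (-0.08, interval of -0.31 to 0.14, adjusted p = 0.617).

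Stx4a, a plasma membrane syntaxin of glucose-stimulated insulin release, had 350, 397, 297 and 307 in KO libraries against 332, 409, 360 and 394 in WT libraries, and its exons overlap another gene. Vamp8, an endosomal and granule VAMP, had 1037, 1231, 1249 and 1205 in KO libraries against 1331, 1347, 1283 and 1234 in WT libraries. Both sets of values overlapped between the groups (log2 fold changes of -0.15 and -0.14, intervals of -0.43 to 0.13 and -0.33 to 0.04, adjusted p = 0.429 and 0.26). Stx6, a syntaxin of the trans-Golgi network and endosomes, was the one SNARE called. It averaged 1238 ± 128 in KO and 1561 ± 104 in WT libraries without overlap (log2 fold change of -0.34 ± 0.09, adjusted p = 0.0314), and the call was lost without any 1 of KO 2, KO 3, KO 4, WT 1, WT 2 or WT 3 (adjusted p up to 0.0891). With the replicate block Stx3, a syntaxin of apical membranes and granules, and Stx5a, of the early Golgi, were lower too (adjusted p = 0.0231 and 0.0269, against 0.0795 and 0.0534 without it). All 7 VAMP genes had log2 fold changes between -0.38 and -0.05, and the 5 SNAP genes between -0.19 and 0.27. Over all 41 members that did not pass, the log2 fold change ran from -0.51 to 1.45, with 18 above 0 and 23 below it.

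Levels per kilobase of exon differed between the 2 kinds of call. They compare genes only roughly, since the merged length of all annotated exons can exceed that of the RNA present. The 13 members that rose had a median level of 62.31 per kilobase in KO libraries and 31 in WT libraries. The median of those that fell, also over genes, was 280.5 in KO and 556 in WT libraries, and that of members that did not pass was 258.3 in KO and 254.6 in WT libraries (65 members with an exon length in GENCODE M21, since Vamp7 had none). In both groups the highest levels were those of Syt13 (7316 in KO and 10320 in WT), Sytl4 (1792 in KO and 4741 in WT) and Rab27a (1666 in KO and 2082 in WT). Next came Syt7, Syt4 and Sytl5 in KO libraries (1399, 1371 and 988.6), and Syt4, Rab3d and Syt7 in WT libraries (1573, 1227 and 1220).

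**Figure D4:**
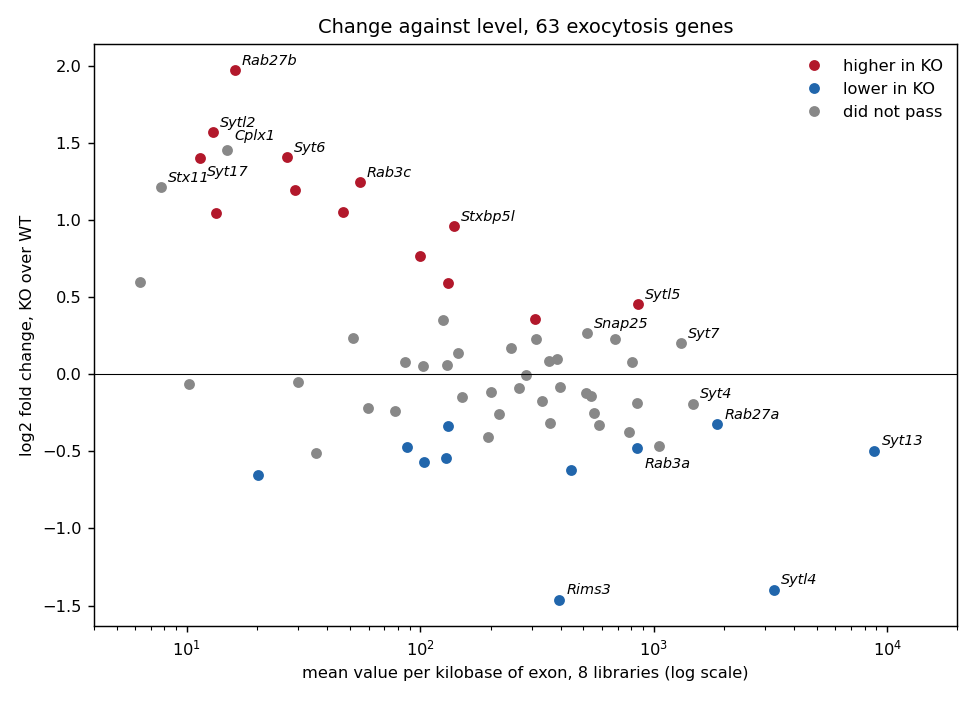
Log2 fold change of KO over WT (vertical axis) against the mean value per kilobase of exon over all 8 libraries (horizontal axis, log scale) for 63 members with an exon length. Members with rises above 1 lie below 100 per kilobase, while Syt13, Sytl4 and Rab27a at the right lie below the zero line.

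The replicate sets were then compared. Within libraries 1 and 2 alone, 14 members were higher and 11 lower in KO (12.3% and 10.9% of all genes), and within libraries 3 and 4 alone 12 were higher and 11 lower (11.3% and 11.4% of all genes). All 25 called members had the same sign in both sets, 16 of them passed in both, and 19 had the larger change in libraries 1 and 2. The calls came from all 8 libraries, which include both sets. A shared sign was thus close to fixed in advance and is no replication. Over all 66 members 54 had the same sign in both sets, and the matching shares of all genes were not counted. Sytl4 changed by -1.80 in libraries 1 and 2 and -1.0 in libraries 3 and 4, Rab27b by 2.52 in libraries 1 and 2 and 1.41 in libraries 3 and 4, and Rab3c by 1.51 in libraries 1 and 2 and 0.97 in libraries 3 and 4. The difference between the sets was tested as an interaction, and no member passed (0 of 66, against 14 or 0.0991% of all genes, limma-trend). At an unadjusted p under 0.05 there were 8 members, Sytl4, Stx1a, Syt16, Rab3c, Rab3b, Syt17, Vamp3 and Snap23, against 2652 or 18.8% of all genes. For Sytl4 the adjusted p was 0.109 and for Stx1a 0.127. With the label in the model, 9 of 66 members were higher in libraries 3 and 4 and 3 were lower, against 9.38% and 6.06% of all genes tested. The higher ones were Cplx1, Stx11, Syt6, Vamp3, Syt4, Stx12, Syt11, Snap91 and Stx16, and the lower ones Cplx2, Stxbp5l and Sytl5.

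**Figure D5:**
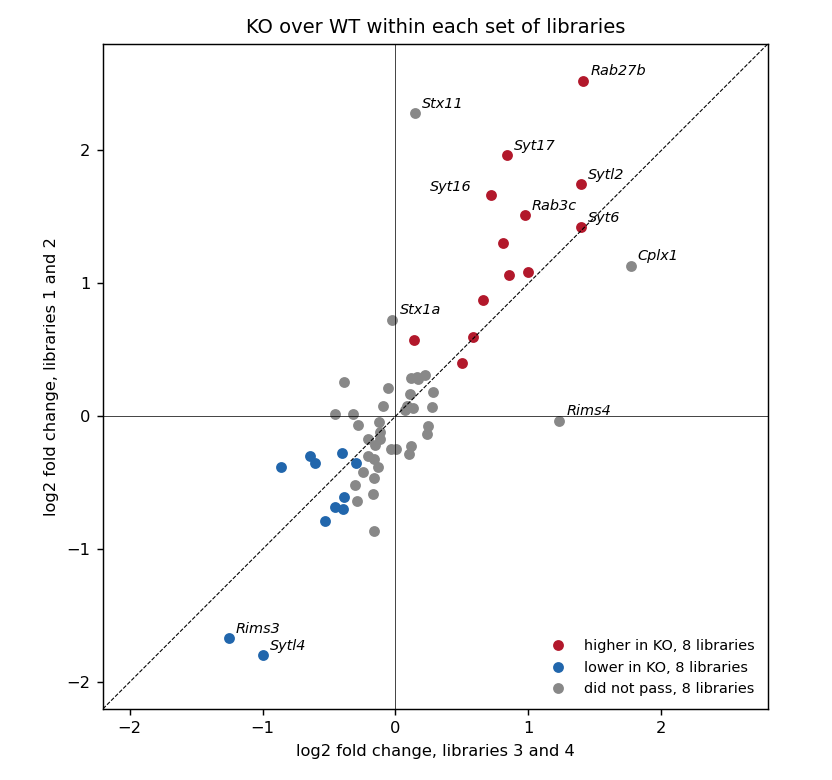
Log2 fold change of KO over WT in libraries 1 and 2 (vertical axis) against that in libraries 3 and 4 (horizontal axis) for 64 members, coloured by the call over all 8 libraries, with a dashed line of equality. The 24 called members shown lie at the upper right or lower left of the zero lines, and most of the larger changes lie farther from 0 on the vertical axis.

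Other genes were taken from an accessory list, whose counts do not describe exocytosis alone. Beside genes of exocytosis it took in genes of transport between the endoplasmic reticulum and the Golgi, such as Sec22b, Gosr2 and Bet1. The list held 78 genes, of which 76 were measured. Of these 6 (7.89%) were higher and 18 (23.7%) lower in KO, beside the background of 11.1% and 9.81%, and 52 did not pass. The median log2 fold change of the list was -0.11. Mlph, melanophilin, a Rab27a effector that links granules to myosin, had 86, 89, 28 and 12 in KO libraries against 360, 393, 263 and 240 in WT libraries. It was lower in every KO library, by a log2 fold change of -2.90 ± 0.58 (adjusted p = 0.00854). Sv2a, the vesicle glycoprotein, had 1137, 1463, 1188 and 1111 in KO libraries against 2504, 2488, 2148 and 2066 in WT libraries, without overlap (-0.91 ± 0.11, adjusted p = 0.00084). Its relative Sv2c had 66, 130, 203 and 210 in KO libraries against 30, 18, 74 and 62 in WT libraries, with KO 1 inside the WT range (1.77 ± 0.51, adjusted p = 0.0385). That call was lost without any 1 of KO 2, KO 3, KO 4, WT 1 or WT 2 (adjusted p up to 0.101).

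Ppfia2, a liprin-α of the release site, had 524, 529, 404 and 432 in KO libraries against 214, 208, 218 and 253 in WT libraries. The groups were well apart (log2 fold change of 1.07 ± 0.12, adjusted p = 0.000682). Rab37, a Rab of secretory granules, had 1303, 1790, 1350 and 1445 in KO libraries against 2546, 2898, 2625 and 2353 in WT libraries (-0.83 ± 0.11, adjusted p = 0.00145). Rab3il1, an exchange factor that interacts with Rab3a, had 149, 138, 121 and 139 in KO libraries against 58, 99, 69 and 89 in WT libraries (0.82 ± 0.20, adjusted p = 0.0191). Both were without overlap, and the call of Rab3il1 was lost without KO 1 or without KO 4 (adjusted p up to 0.0531). The other calls included Sv2b, Cadps2 and Exoc6, which were higher, and Exph5, Rab3gap2, Cadps, Napa, Gosr2, Bet1, Bet1l, Sec22b, Madd, Rabac1, Snph, Scfd2, Esyt1 and Esyt2, which were lower. The calls of Bet1, Sec22b and Esyt2 were lost in most fits that left out 1 library (adjusted p up to 0.108, 0.0758 and 0.0929, limma-trend). Cadps and Cadps2, the relatives that prime dense-core granules, thus moved in opposite directions, with 4740 ± 205 in KO and 6974 ± 936 in WT libraries for Cadps, and 838 ± 51.3 in KO and 554 ± 80.7 in WT libraries for Cadps2 (SD, n = 4 each).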

How the data were processed

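Islet RNA of 8 mice was sequenced as 4 KO and 4 WT libraries, grouped by the labels. The authors used edgeR 3.16.15, RSEM 1.2.31, STAR 2.5.3a and bcl2fastq 2.20 with build GRCm38.p5, per the submitters' processing notes. The sources used here give neither their settings nor the strandedness. The per-library values deposited by the authors are a score: normalized between libraries and rounded to whole numbers, as column names and values show (median-of-ratios factors of 0.994 to 1.01). The authors' log2 fold change and FDR came from the same deposited table.

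Since the values are not counts, limma-trend (limma 3.58.1, R 4.3.3) was fitted to log2(value + 1) of the 14121 genes that reached 1 in no fewer than 4 libraries. P-values were adjusted over all of them (Benjamini-Hochberg, threshold of 0.05). The scale understates changes of low genes. Tested on simulated KO against WT data of 14121 genes, the fit called 77% of 2-fold changes, 97% of 4-fold changes and 10 unchanged genes. These figures describe the simulated data alone. Recovery in scarce members, and in libraries that vary together by number or set, was not tested. The members, lists and tests were chosen with earlier results of these data known. Per-library values were named by rule: the 20 called members with the largest change, a core of 18 beta cell exocytosis genes, and 6 called accessory genes; some are not reported here.

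Same-numbered libraries deviated together from their group means across 13081 genes (r = 0.327, 0.583, 0.664 and 0.381, each above 0.1). Correlations between libraries of different number were not computed, so these r values have no reference. Whether the numbers pair the mice, beyond the split of the libraries into sets, was not tested. A fit with the number as a block was an alternative. Others were each set of libraries alone, the set as a term, leaving out each library, pseudocounts of 0.1 and 10, no filter or a mean of at least 50, totals without hormone and mitochondrial genes, median-of-ratios factors and the authors' own FDR. Gene positions, exon lengths and overlaps came from GENCODE M21 (GRCm38, 65 of 66 IDs found), promoters from RefSeq (GRCm38.p6). Exon length was that of all annotated exons of a gene merged, so it depends on the transcripts annotated. Reads shared by overlapping exons could not be assigned without strandedness.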

Additional observations from a re-analysis of the deposited data

Results flagged for a closer look

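Among 37 members that were called or belonged to the fixed core, 74 groups of 4 libraries were tested for 1 value far from the other 3 (Dixon's ratio of gap to range), and 5 were found. Chance gives about 1 in 20 such groups. Rab27b in KO 1 (492, against 199 to 210 in the other KO libraries), Syt1 in KO 1 (396, against 551 to 578) and Sytl3 in KO 1 (54, against 87 to 92) came from 1 library, which also had the highest ductal and alpha marker sums of the KO libraries. The other 2 were in WT 1, Syt9 (215, against 318 to 330 in the other WT libraries) and Sytl3 (110, against 129 to 130). Without KO 1 the calls of Rab27b and Syt1 were kept and that of Sytl3 was lost.

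Cplx2 moved in opposite directions in the 2 sets. Both KO libraries were above both WT libraries in numbers 1 and 2, and both were below them in numbers 3 and 4. The change in libraries 3 and 4 minus that in libraries 1 and 2 was -0.27 on the log2 scale, and as an interaction it did not pass (adjusted p = 0.292, limma-trend).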

How the results depend on the processing

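Counts of called members were 13 higher and 12 lower, and they were the same with pseudocounts of 0.1 and 10, without the filter, with a mean of at least 50 (which left out scarce members such as Cplx1, Rims4, Stx11 and Unc13d) and with median-of-ratios factors. With the replicate block they were 14 and 15, and with the set as a term 17 and 21 (14.2% and 11.7% of all genes with the block, 17% and 14.9% with the set, beside 11.1% and 9.81%). On leaving out 1 library they were 10 to 15 and 8 to 11, while the shares of all genes ran from 7.94% to 11.9% higher and 6.11% to 11.3% lower. Accessory genes gave 4 to 6 higher and 14 to 19 lower on leaving out 1 library, beside the same shares of all genes, against 6 and 18 with all. With the replicate block they gave 7 and 19, and beside those named in the report the block ended the call of Bet1 (adjusted p = 0.0752). All 25 calls kept their direction under each alternative tried, all of which used the same libraries. Of all 66 members 59 kept their sign in libraries 1 and 2 alone, 61 in libraries 3 and 4 alone and no fewer than 63 on leaving out 1 library. Among members that did not pass, signs turned for Cplx2 (-0.0539 in libraries 3 and 4 alone and -0.0526 to 0.21 on leaving out 1 library), Stx1a (-0.0245 in libraries 3 and 4 alone), Stx4a (0.0166 in libraries 1 and 2 alone) and Unc13a (0.0759 in libraries 1 and 2 alone, 0.0353 with totals without hormone and mitochondrial genes, -0.0614 to 0.047 on leaving out 1 library). In libraries 1 and 2 alone they also turned for Rims4 (-0.0336), Unc13d (0.259), Stx2 (-0.135), Snap29 (-0.0741) and Vamp1 (0.0186). In libraries 3 and 4 alone they also turned for Snap23 (0.0984), Stx7 (0.00484) and Vamp5 (0.114). The cause was not tested. With totals without hormone and mitochondrial genes Stx6, Syt3, Sytl3 and Sytl5 lost their calls, and Snap25 (adjusted p = 0.0357) and Syt7 (adjusted p = 0.043) were called higher. The unknown depth leaves no counting interval for scarce members such as Cplx1, Stx11 and Rims4, and single-library omissions leave 3 libraries in a group.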
